A study of Homo sapiens with 12 samples.

Results

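The aminoacyl tRNA synthetases made up 37 of the 18434 genes listed for Huh7 and 37 of the 17640 genes listed for HepG2. They were picked by symbol, as 1 amino acid letter followed by ARS and an optional 1 or 2, together with EPRS1, FARSA and FARSB. The scaffold genes AIMP1, AIMP2 and EEF1E1 were left out. 20 of the 37 encode cytosolic enzymes, among them GARS1 and KARS1, whose products also serve mitochondria, and 17 encode enzymes of mitochondria only. All 37 passed the filter on low counts in both lines and were tested.

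RNA was sequenced from Huh7 and HepG2, established human lines of liver cancer origin that the labels give as wild type. Either UBL5 siRNA or Ctrl-siRNA, a non-targeting control, was delivered with Lipofectamine RNAiMAX, and the labels give 52 h for all 12 libraries. The knockdown is transient, and cells without siRNA were not analysed here. UBL5 is a small ubiquitin-like protein known to bind splicing factors. There were 3 libraries per siRNA in each line, but whether those came from separate transfections is not given in the sources used here, so a p-value sets a difference against a spread that may be technical only.

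A synthetase joins one amino acid to the tRNAs that decode it, which is the step where the genetic code is read in chemical terms. The enzymes fall into unrelated class I and class II folds, and in animal cells a group of cytosolic synthetases is held with scaffold proteins in the multisynthetase complex. Mitochondria translate their own mRNAs and import a separate, nuclear-encoded set of synthetases. Genes of many cytosolic synthetases are known targets of ATF4, the transcription factor of the amino acid and unfolded protein responses, which binds the C/EBP-ATF response element.

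Promoter windows are shown first because the members differed in whether they hold that element. RefSeq promoters (GRCh38.p14, 250 bases before to 50 bases after the start) matched 30 of the 37 members by symbol. The windows of the other 7, LARS1, VARS1, YARS1, AARS2 and VARS2 among them, were not analysed here. The element was searched on both strands as TGATGNAAN, with N for any base, and no other motif was searched. It was found in 8 members, 7 of the 16 cytosolic and 1 of the 14 mitochondrial members with a window, against 4.45% of the 27305 genes in the promoter table. The matches are letters in a window and not measured binding. Of the 8 matches, 7 are printed, each in the direction of the gene with 15 bases on either side, and the capitals mark the match.
AARS1 (chr16:70289671-70289709, minus strand): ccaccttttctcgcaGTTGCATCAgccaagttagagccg
CARS1 (chr11:3057403-3057441, minus strand): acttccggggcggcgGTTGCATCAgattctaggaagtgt
GARS1 (chr7:30594829-30594867, plus strand): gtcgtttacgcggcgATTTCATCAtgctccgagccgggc
MARS1 (chr12:57488048-57488086, plus strand): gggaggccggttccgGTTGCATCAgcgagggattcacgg
NARS1 (chr18:57621799-57621837, minus strand): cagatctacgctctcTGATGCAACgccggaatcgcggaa
TARS1 (chr5:33440951-33440989, plus strand): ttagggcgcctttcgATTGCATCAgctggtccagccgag
YARS2 (chr12:32756071-32756109, minus strand): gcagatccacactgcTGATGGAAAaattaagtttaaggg

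In AARS1, CARS1, GARS1, MARS1 and TARS1 the match runs against the gene, and in NARS1 and YARS2 along it. The matches of CARS1 and MARS1 begin within 5 bases before the start, whereas those of AARS1 and YARS2 begin farther upstream. One further window is shown because it serves a pair of members. HARS1 (minus strand) and HARS2 (plus strand), the cytosolic and the mitochondrial histidyl enzyme, begin next to each other on chromosome 5 and are read in opposite directions. The 300 bases of the HARS2 window are printed on the plus strand, and the capitals mark the 84 bases between the RefSeq starts of the genes.
HARS2 window (chr5:140691205-140691504, plus strand): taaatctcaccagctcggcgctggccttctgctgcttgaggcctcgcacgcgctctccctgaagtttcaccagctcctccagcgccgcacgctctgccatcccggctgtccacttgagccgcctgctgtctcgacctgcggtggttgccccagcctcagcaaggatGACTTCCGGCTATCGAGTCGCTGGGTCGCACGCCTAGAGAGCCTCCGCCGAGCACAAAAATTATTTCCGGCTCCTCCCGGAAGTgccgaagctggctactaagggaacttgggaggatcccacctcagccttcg

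Counts per library were 20710925 to 22126273 with UBL5 siRNA and 19469574 to 27158770 with Ctrl-siRNA in Huh7, and 19983681 to 24245412 against 23672962 to 29744471 in HepG2. Control replicate 3 of HepG2 stood apart, with 1773 genes of the HepG2 table at 0 against 159 to 233 such genes in each other HepG2 library. UBL5 had 6.20, 6.44 and 5.59 CPM with UBL5 siRNA, against 66.97, 69.5 and 65.03 CPM with Ctrl-siRNA in Huh7, where CPM stands for counts-per-million after TMM scaling over all 12 libraries. In HepG2, UBL5 had 7.19, 4.48 and 2.97 CPM with UBL5 siRNA, against 62.6, 57.7 and 61.8 CPM with Ctrl-siRNA. The siRNA groups did not overlap in either line (log2 fold change -3.44 in Huh7 and -3.63 in HepG2, adjusted p = 3.4e-13 and 8.6e-05, edgeR). All 10 hepatocyte markers were listed in both lines, and they summed to 30676 to 31115 CPM with UBL5 siRNA and 30319 to 31642 CPM with Ctrl-siRNA in Huh7, and to 51129 to 59008 and 53217 to 57132 CPM in HepG2. Singly, 4 of the 10 rose and 1 fell in Huh7, and 5 rose and 0 fell in HepG2 (adjusted p under 0.05, edgeR). Over all genes, 34.7% rose and 36.4% fell in Huh7, and 16.4% and 20.0% in HepG2. HNF4A, FGB, APOA1 and AMBP rose in both lines (log2 0.75, 0.61, 0.83 and 0.18 in Huh7, and 0.29, 0.46, 0.53 and 0.55 in HepG2). APOB fell in Huh7 (log2 -0.19). Of 5 endothelial markers, 1 was listed in Huh7 and 2 in HepG2, with sums of at most 6.51 CPM, and VWF was not analysed here. All 5 fibroblast markers were listed, with sums of 17.3 to 25.4 CPM with UBL5 siRNA and 31.8 to 35.6 CPM with Ctrl-siRNA in Huh7, and of 9.96 to 21.5 and 8.01 to 14.1 CPM in HepG2. The lower Huh7 sum came from LUM (log2 -1.54), whereas the other markers tested there, COL1A1 (1.17) and PDGFRB (0.79), rose. Of 5 leukocyte markers, 2 were listed in Huh7 (328 to 345 CPM with UBL5 siRNA, 578 to 593 CPM with Ctrl-siRNA) and 3 in HepG2 (973 to 1218 and 1686 to 2218 CPM), mostly from LYZ (lysozyme), while PTPRC and CD3E were not analysed here. CD14 was low and rose in both lines (log2 1.51 in Huh7 and 4.72 in HepG2), opposite to LYZ. The part of these shifts in the results was not tested. Transcripts of the mitochondrial genome took 2.66% to 3.72% of counts with UBL5 siRNA and 2.46% to 3.30% with Ctrl-siRNA in Huh7. In HepG2 they took 2.75% to 3.61% and 1.91% to 2.36%, and the part of this shift in the values of the mitochondrial enzymes was not tested.

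UBL5 depletion was followed by lower mRNA of 10 of the 20 cytosolic synthetases in each line, and by a split among the mitochondrial ones, with HARS2 higher by more than any cytosolic member moved. In bulk RNA, fewer cells of a kind and less RNA per cell cannot be told apart. In Huh7, 7 of 20 cytosolic enzymes rose and 10 fell, where 34.7% of all 16965 genes tested rose and 36.4% fell (adjusted p under 0.05, edgeR). Among the mitochondrial enzymes, 12 of 17 rose and 4 fell. In HepG2, 1 of 20 cytosolic enzymes rose and 10 fell, where 16.4% of all 15755 genes tested rose and 20.0% fell, and of the mitochondrial enzymes 5 of 17 rose and 2 fell. The median log2 fold change of the cytosolic enzymes was -0.12 in Huh7 and -0.22 in HepG2, and that of the mitochondrial enzymes 0.28 and -0.03, beside -0.01 and 0.01 over all genes. Over the alternatives run, the cytosolic median ran from -0.20 to -0.10 in Huh7 and from -0.27 to -0.18 in HepG2, and the mitochondrial median from 0.20 to 0.32 in Huh7 and from -0.09 to 0.05 in HepG2. Over both lines, 9 members fell in each line, 6 rose in each line, none was called in opposite directions, and 1 was called in neither. The same counts over all genes were not made, so whether these counts lie beyond the background is not shown. HepG2 counts depended on single libraries: without UBL5 replicate 2, the calls over all genes dropped to 3823 in place of 5736, with 6 cytosolic members lower and 3 mitochondrial members higher and 1 lower, and without control replicate 2, 6 cytosolic members were lower.

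**Figure D1:**
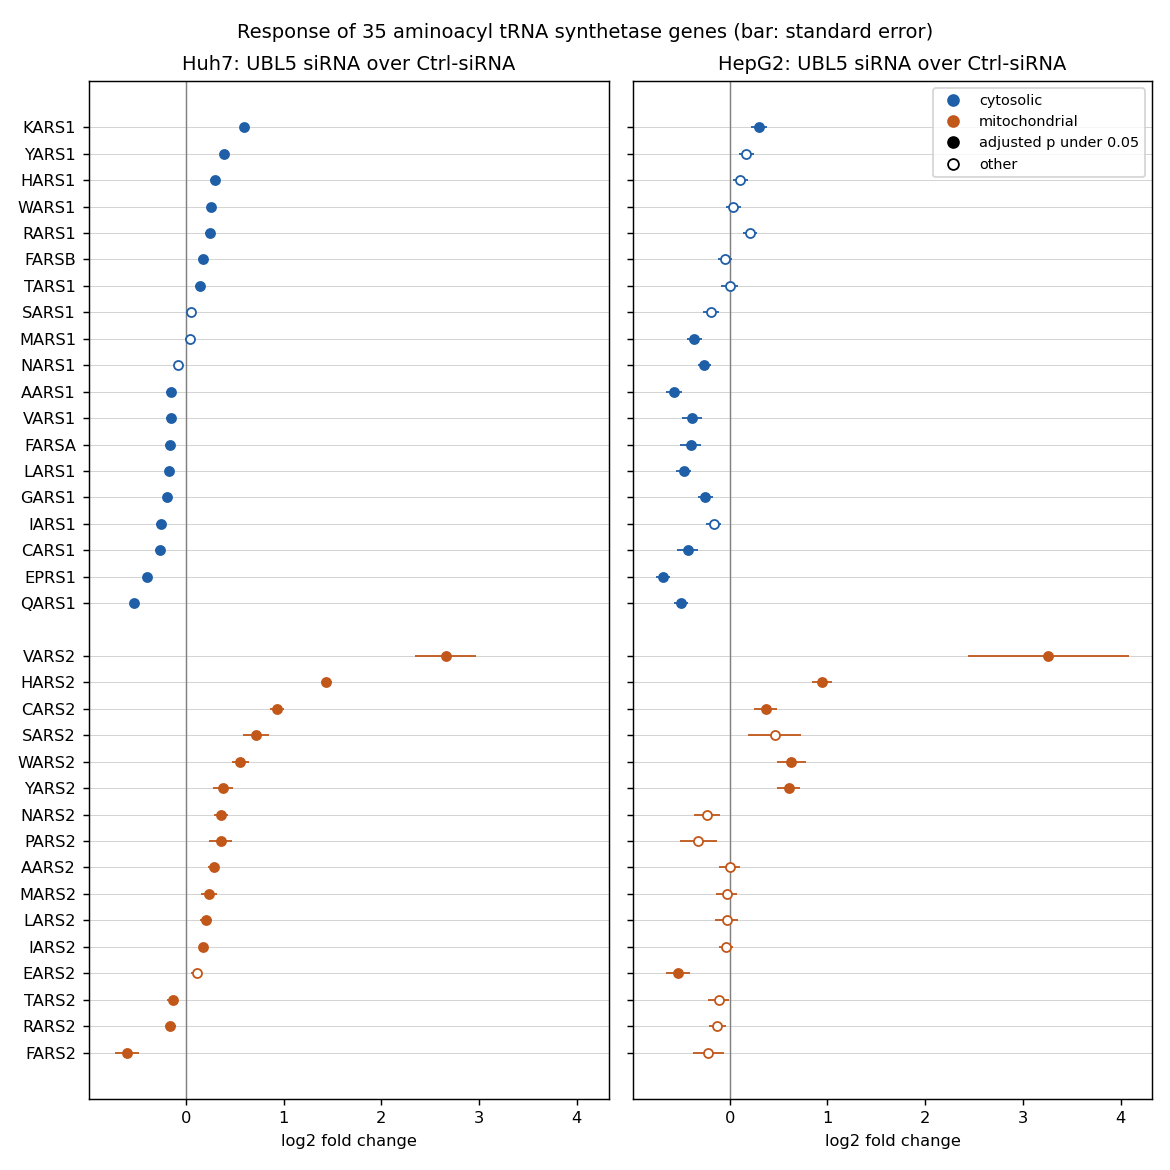
Log2 fold change of UBL5 siRNA over Ctrl-siRNA for 35 of the 37 members in Huh7 (left) and HepG2 (right), with the standard error as a bar and filled points for an adjusted p under 0.05. Cytosolic members lie between -0.53 and 0.60 in Huh7 and between -0.68 and 0.30 in HepG2, and VARS2 is the highest of the mitochondrial members in both lines.

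Summed over the 20 cytosolic enzymes, the level was 5047, 4921 and 4918 CPM with UBL5 siRNA in Huh7, against 5218, 5324 and 5236 CPM with Ctrl-siRNA. In HepG2 it was 4475, 4385 and 4612 CPM with UBL5 siRNA, against 5009.8, 5185 and 5196 CPM with Ctrl-siRNA. In both lines every UBL5 siRNA library was below every control library in this sum. The 17 mitochondrial enzymes summed to 996, 987 and 971 CPM with UBL5 siRNA in Huh7, against 972, 952 and 912 CPM with Ctrl-siRNA. In HepG2 they summed to 1078, 995 and 980.3 CPM with UBL5 siRNA, against 1054, 1026 and 1114 CPM with Ctrl-siRNA, and in both lines the groups overlapped.

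The multisynthetase complex holds 8 of the cytosolic members, among them EPRS1, IARS1, KARS1, LARS1, MARS1, QARS1 and RARS1. In Huh7, 5 of these 8 fell and 2 rose, and in HepG2 4 fell and 1 rose. Of the 12 cytosolic members outside the complex, 5 fell and 5 rose in Huh7, and 6 fell and none rose in HepG2. Beside these stand the shares over all genes, 34.7% higher and 36.4% lower in Huh7 and 16.4% and 20.0% in HepG2, and the Huh7 counts outside the complex (41.7% each way) lie near them. The median log2 fold change was -0.19 in the complex and -0.02 outside it in Huh7, and -0.26 and -0.22 in HepG2. By fold, 9 cytosolic enzymes are of class I, of which 5 fell and 3 rose in Huh7 and 5 fell and none rose in HepG2. The 10 of class II, with EPRS1 counted in neither because it joins one of each, had 4 that fell and 4 that rose in Huh7, and 4 and 1 in HepG2, so that the Huh7 counts of class II lie near the all-gene shares.

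EPRS1, which carries the glutamyl and the prolyl enzyme on one chain, had 479, 469 and 473 CPM with UBL5 siRNA, against 626, 649 and 623 CPM with Ctrl-siRNA in Huh7. In HepG2, EPRS1 had 225, 212 and 222 CPM with UBL5 siRNA, against 341, 337 and 373 CPM with Ctrl-siRNA. All libraries with UBL5 siRNA lay below all control libraries of their line, and EPRS1 fell in both (log2 fold change -0.39, SE 0.0428, adjusted p = 8.3e-07 in Huh7, and log2 fold change -0.68, SE 0.0718, adjusted p = 2.8e-04 in HepG2, where it was the cytosolic member with the lowest log2 fold change).

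QARS1, the glutaminyl enzyme, had 234, 224 and 232 CPM with UBL5 siRNA, against 336, 348 and 325 CPM with Ctrl-siRNA in Huh7. In HepG2, QARS1 had 242, 216 and 235 CPM with UBL5 siRNA, against 317, 331 and 327 CPM with Ctrl-siRNA. The siRNA groups did not overlap in either line, and the values of the lines interleaved within each siRNA. QARS1 fell in both (log2 fold change -0.53, SE 0.0451, adjusted p = 5.9e-08 in Huh7, and log2 fold change -0.50, SE 0.0726, adjusted p = 0.0011 in HepG2), and the difference between the lines, Huh7 minus HepG2, was -0.06 (SE 0.0809, adjusted p = 0.68).

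KARS1, the lysyl enzyme and the only member of the complex whose gene also supplies mitochondria, went the other way. It had 429, 418 and 412 CPM with UBL5 siRNA, against 282, 292 and 270.3 CPM with Ctrl-siRNA in Huh7. In HepG2, KARS1 had 519, 503 and 582 CPM with UBL5 siRNA, against 438, 459.6 and 399.6 CPM with Ctrl-siRNA. The groups did not overlap, and KARS1 was the cytosolic member that rose most in Huh7 (log2 fold change 0.60, SE 0.0451, adjusted p = 1.5e-08) and the only one called higher in HepG2 (log2 fold change 0.30, SE 0.0863, adjusted p = 0.025). The HepG2 call was lost without UBL5 replicate 3 (adjusted p = 0.053), control replicate 1 (0.057) or control replicate 3 (0.059).

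MARS1, the methionyl enzyme, had 447, 419 and 421 CPM with UBL5 siRNA, against 416, 431 and 425 CPM with Ctrl-siRNA in Huh7, where the groups overlapped and no change was called (log2 fold change 0.04, SE 0.0456, adjusted p = 0.45). In HepG2, MARS1 had 207, 219 and 222 CPM with UBL5 siRNA, against 256, 291 and 282 CPM with Ctrl-siRNA, and every UBL5 siRNA library was below every control library (log2 fold change -0.36, SE 0.0768, adjusted p = 0.0066). The MARS1 gene shares 13.3% of its exon bases with other genes, DDIT3 and ARHGAP9 on the opposite strand among them, and the strand setting of the counting is not given in the sources used here.

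Of the other members of the complex, LARS1 (leucyl) averaged 186 ± 3.40 CPM with UBL5 siRNA and 212 ± 2.06 CPM with Ctrl-siRNA in Huh7 and 131 ± 4.54 CPM with UBL5 siRNA and 181 ± 8.27 CPM with Ctrl-siRNA in HepG2 (SD, n = 3 each), and fell in both (log2 -0.17 and -0.47, adjusted p = 0.0028 and 0.0017, edgeR). IARS1 (isoleucyl) fell in Huh7 (log2 -0.26, adjusted p = 1.9e-04) and was not called in HepG2 (log2 -0.16, adjusted p = 0.14). RARS1 (arginyl) rose in Huh7 (log2 0.24, adjusted p = 2.1e-04). In HepG2 its log2 fold change was 0.21, with adjusted p = 0.052 without and 0.035 with the replicate number as a block, so that it passed only with the pairing or under other settings, such as RLE scaling (0.037), DESeq2 (0.015) or without UBL5 replicate 2 (0.0498).

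Among the cytosolic enzymes outside the complex, AARS1, the alanyl enzyme, had 629, 608 and 606 CPM with UBL5 siRNA, against 681, 707 and 697 CPM with Ctrl-siRNA in Huh7. In HepG2, AARS1 had 335, 355 and 349.9 CPM with UBL5 siRNA, against 465, 508 and 561 CPM with Ctrl-siRNA. The groups did not overlap in either line, and AARS1 fell in both (log2 fold change -0.16, SE 0.0436, adjusted p = 0.0049 in Huh7, and log2 fold change -0.57, SE 0.0822, adjusted p = 0.0011 in HepG2). Without UBL5 replicate 2 the Huh7 call was lost (adjusted p = 0.053).

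CARS1, the cysteinyl enzyme, had 83.2, 87.5 and 87.9 CPM with UBL5 siRNA, against 99.7, 108 and 109 CPM with Ctrl-siRNA in Huh7. In HepG2, CARS1 had 38.7, 39.3 and 41.4 CPM with UBL5 siRNA, against 55.4, 57.03 and 47.6 CPM with Ctrl-siRNA. The siRNA groups were apart in both lines, with all HepG2 libraries below those of Huh7, and CARS1 fell in each (log2 fold change -0.27, SE 0.0524, adjusted p = 3.1e-04 in Huh7, and log2 fold change -0.43, SE 0.106, adjusted p = 0.013 in HepG2). The HepG2 call was lost without UBL5 replicate 2 (adjusted p = 0.063), control replicate 1 (0.051) or control replicate 2 (0.061).

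YARS1, the tyrosyl enzyme, had 286, 277 and 282 CPM with UBL5 siRNA, against 215, 218 and 221 CPM with Ctrl-siRNA in Huh7. It rose there (log2 fold change 0.39, SE 0.0437, adjusted p = 1.1e-06). In HepG2, YARS1 had 231, 246 and 256 CPM with UBL5 siRNA, against 212, 227 and 209 CPM with Ctrl-siRNA, again with no overlap, though the difference did not pass (log2 fold change 0.17, SE 0.0762, adjusted p = 0.11).

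HARS1, the cytosolic histidyl enzyme of the gene pair printed above, had 101, 100.2 and 93.02 CPM with UBL5 siRNA, against 82.2, 81.3 and 79.1 CPM with Ctrl-siRNA in Huh7, where it rose (log2 fold change 0.30, SE 0.0501, adjusted p = 7.6e-05). In HepG2, HARS1 had 104, 112 and 109.5 CPM with UBL5 siRNA, against 99.8, 101 and 100.04 CPM with Ctrl-siRNA. Those HepG2 groups did not overlap either, though the difference did not pass (log2 fold change 0.11, SE 0.0758, adjusted p = 0.31).

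The remaining 8 cytosolic enzymes had log2 fold changes between -0.40 and 0.26 in both lines. GARS1 (glycyl), VARS1 (valyl) and FARSA (the catalytic subunit of the phenylalanyl enzyme) fell in either line, at log2 -0.19, -0.16 and -0.17 in Huh7 and -0.25, -0.38 and -0.40 in HepG2. NARS1 (asparaginyl) fell in HepG2 (-0.26) and was at -0.08 in Huh7 (adjusted p = 0.091). WARS1 (tryptophanyl), TARS1 (threonyl) and FARSB (the other subunit of the phenylalanyl enzyme) rose in Huh7 (log2 0.26, 0.14 and 0.18) and were at 0.04, 0.00 and -0.05 in HepG2, where none passed (adjusted p = 0.73, 0.99 and 0.64). FARSA and FARSB, whose products work as one enzyme, were called in opposite directions in Huh7. Scaling by library totals ended the Huh7 calls of FARSB and TARS1 (adjusted p = 0.11 and 0.25), and a fit over all 12 libraries those of FARSA, VARS1 and TARS1 (0.07, 0.067 and 0.17). RLE scaling ended the HepG2 call of GARS1 (0.058). SARS1 (seryl) was called in neither line (log2 0.05 in Huh7 and -0.19 in HepG2, adjusted p = 0.37 and 0.094). In HepG2, GARS1 was no longer called without UBL5 replicate 1 (adjusted p = 0.10), UBL5 replicate 2 (0.15), control replicate 1 (0.081) or control replicate 2 (0.085). FARSA was no longer called there without UBL5 replicate 2 (0.084), UBL5 replicate 3 (0.067) or control replicate 2 (0.062), VARS1 without UBL5 replicate 3 (0.064) or control replicate 2 (0.077), and NARS1 without UBL5 replicate 2 (0.12).

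The 7 cytosolic members whose windows hold the response element printed above were AARS1, CARS1, GARS1, IARS1, MARS1, NARS1 and TARS1. In Huh7, 4 of these fell, 1 rose (TARS1) and 2 were not called, with log2 fold changes from -0.27 to 0.14 and a median of -0.16. In HepG2, 5 fell, none rose and 2 were not called, with a median of -0.26 and values from -0.57 to 0.00. The 9 cytosolic members with a window and no match had 3 that fell and 5 that rose in Huh7 and a median of 0.18, with values from -0.53 (QARS1) to 0.60. In HepG2, 3 of those 9 fell and 1 rose, with a median of -0.05 and values from -0.68 (EPRS1) to 0.30. The lowest value in each line was thus that of a member without a match. Over all genes, 36.4% fell and 34.7% rose in Huh7, and 20.0% fell and 16.4% rose in HepG2, and 3 of 9 is near the Huh7 share. These counts are a description, and binding of ATF4 was not measured.

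Of the mitochondrial enzymes, HARS2 (chromosome 5, 140691430 to 140699305, plus strand, GENCODE 44), the histidyl enzyme, had 75.7, 78.03 and 75.6 CPM with UBL5 siRNA, against 29.6, 28.005 and 28.5 CPM with Ctrl-siRNA in Huh7. In HepG2, HARS2 had 65.98, 77.3 and 80.3 CPM with UBL5 siRNA, against 38.9, 40.5 and 36.3 CPM with Ctrl-siRNA. All libraries with UBL5 siRNA exceeded all controls, and HARS2 rose in both (log2 fold change 1.43, SE 0.056, adjusted p = 1.5e-11 in Huh7, and log2 fold change 0.94, SE 0.106, adjusted p = 3.6e-04 in HepG2). Its neighbour HARS1, whose RefSeq start is on the other side of the 84 bases shown in capitals, rose in Huh7 by a log2 of 0.30 and was at 0.11 in HepG2. HARS2 shares 6.99% of its exon bases with HARS1 and ZMAT2.

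**Figure D2:**
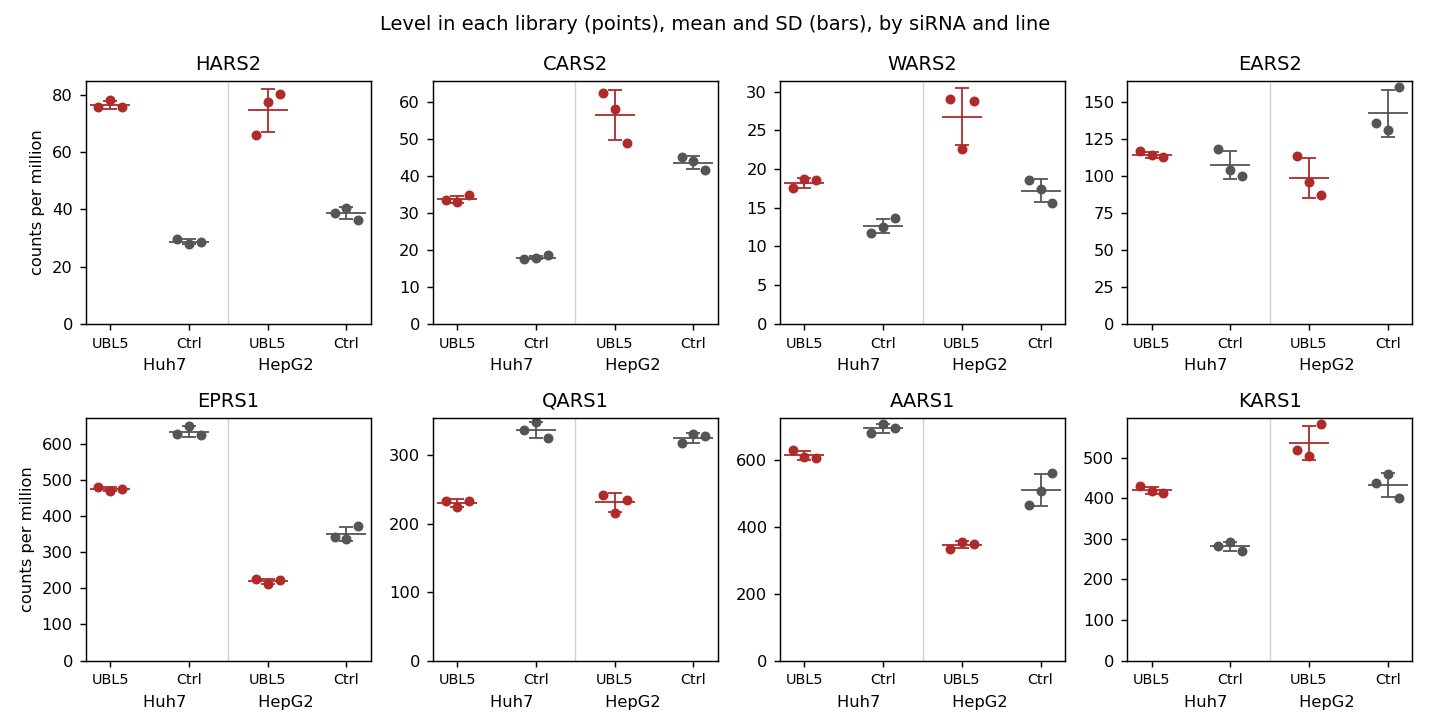
CPM in each library (points) with the mean and SD of 3 libraries (bars) for 8 members, UBL5 siRNA beside Ctrl-siRNA within Huh7 and within HepG2, on axes that start at 0. HARS2 with UBL5 siRNA stays at or above 65.98 CPM, apart from the control libraries in both lines, whereas EARS2 is apart from them in HepG2 and overlaps in Huh7.

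CARS2, the cysteinyl enzyme, had 33.5, 32.98 and 34.9 CPM with UBL5 siRNA, against 17.5, 17.9 and 18.6 CPM with Ctrl-siRNA in Huh7. In HepG2, CARS2 had 62.6, 58.2 and 49.1 CPM with UBL5 siRNA, against 45.2, 44.1 and 41.7 CPM with Ctrl-siRNA. The groups were apart in both lines, and CARS2 rose by more in Huh7, where its control level was lower (log2 fold change 0.93, SE 0.0694, adjusted p = 1.3e-08 in Huh7, and log2 fold change 0.37, SE 0.116, adjusted p = 0.035 in HepG2). Leaving out any of 5 of the 6 HepG2 libraries ended the HepG2 call: UBL5 replicate 1 (adjusted p = 0.11), UBL5 replicate 2 (0.087), control replicate 1 (0.066), control replicate 2 (0.09) or control replicate 3 (0.056). Scaling by library totals ended it as well (0.073).

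WARS2, the tryptophanyl enzyme, had 17.5, 18.7 and 18.5 CPM with UBL5 siRNA, against 11.8, 12.5 and 13.7 CPM with Ctrl-siRNA in Huh7. In HepG2, WARS2 had 29.002, 22.5 and 28.7 CPM with UBL5 siRNA, against 18.5, 17.4 and 15.6 CPM with Ctrl-siRNA. It rose in both lines with no overlap of the groups (log2 fold change 0.56, SE 0.0885, adjusted p = 4.5e-05 in Huh7, and log2 fold change 0.63, SE 0.145, adjusted p = 0.0096 in HepG2). YARS2, the tyrosyl enzyme, averaged 18.1 ± 2.32 CPM with UBL5 siRNA and 14.2 ± 0.947 CPM with Ctrl-siRNA in Huh7 and 44.6 ± 2.34 CPM with UBL5 siRNA and 29.3 ± 2.82 CPM with Ctrl-siRNA in HepG2 (SD, n = 3 each) and rose in both (log2 0.38 and 0.60). The YARS2 gene shares 18.1% of its exon bases with a noncoding gene on the opposite strand.

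VARS2 (chromosome 6, 30914205 to 30926459, plus strand), the valyl enzyme, had the highest log2 fold change of all 37 members in both lines, at the lowest level. It had 62, 60 and 45 counts with UBL5 siRNA, against 16, 4 and 10 counts with Ctrl-siRNA in Huh7 (2.93, 2.88 and 2.01 CPM with UBL5 siRNA, against 0.559, 0.175 and 0.486 CPM with Ctrl-siRNA). In HepG2 it had 75, 114 and 80 counts with UBL5 siRNA, against 13, 19 and 0 counts with Ctrl-siRNA (3.46, 4.91 and 4.39 CPM with UBL5 siRNA, against 0.516, 0.828 and 0 CPM with Ctrl-siRNA). The 0 was in control replicate 3, the library with 1773 genes at 0, and the HepG2 call held without that library. The groups did not overlap (log2 fold change 2.66, SE 0.312, adjusted p = 1.9e-06 in Huh7, and log2 fold change 3.26, SE 0.824, adjusted p = 0.015 in HepG2), but without UBL5 replicate 2 the HepG2 call was lost (adjusted p = 0.064). VARS2 shares 63.0% of its exon bases with a noncoding gene on the same strand, and SARS2 shares 48.2% of its own with a protein-coding gene on the same strand. How reads in shared bases were counted is not given in the sources used here, so the levels of these members are uncertain. SARS2, the seryl enzyme, had 142, 158 and 150 counts with UBL5 siRNA, against 108, 110 and 91 counts with Ctrl-siRNA in Huh7, where it rose (log2 fold change 0.72, SE 0.132, adjusted p = 1.7e-04). In HepG2 it had 108, 137 and 72 counts, against 98, 96 and 77, and was not called (log2 fold change 0.46, SE 0.268, adjusted p = 0.22). Without VARS2 and SARS2, 10 of 15 mitochondrial enzymes rose and 4 fell in Huh7, and 4 rose and 2 fell in HepG2. That is 66.7% and 26.7% in Huh7, beside 34.7% and 36.4% of all genes. In HepG2 it is 26.7% and 13.3%, beside 16.4% and 20.0% of all genes. The median log2 fold change of these 15 was 0.24 in Huh7 and -0.04 in HepG2, where 11 of the 15 values were negative.

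EARS2, the glutamyl enzyme, differed between the lines. It had 116, 114 and 113 CPM with UBL5 siRNA, against 118, 104 and 100.1 CPM with Ctrl-siRNA in Huh7, with overlap (log2 fold change 0.11, SE 0.0574, adjusted p = 0.097). In HepG2, EARS2 had 113, 95.6 and 87.1 CPM with UBL5 siRNA, against 136, 131 and 160.1 CPM with Ctrl-siRNA, with no overlap, and fell (log2 fold change -0.53, SE 0.121, adjusted p = 0.0093). The HepG2 call was lost without UBL5 replicate 2 (adjusted p = 0.051), and in Huh7 EARS2 was called higher without control replicate 1 (log2 0.18, adjusted p = 0.0059).

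FARS2, the phenylalanyl enzyme, had 5.02, 5.91 and 4.74 CPM with UBL5 siRNA, against 7.66, 8.84 and 7.68 CPM with Ctrl-siRNA in Huh7, where it fell with no overlap (log2 fold change -0.60, SE 0.126, adjusted p = 5.3e-04). In HepG2, FARS2 had 18.03, 13.2 and 16.9 CPM with UBL5 siRNA, against 17.2, 17.9 and 20.6 CPM with Ctrl-siRNA, with overlap (log2 fold change -0.22, SE 0.157, adjusted p = 0.32). RARS2, the arginyl enzyme, had 84.7, 79.9 and 80.5 CPM with UBL5 siRNA, against 90.5, 98.9 and 88.5 CPM with Ctrl-siRNA in Huh7, a small fall with no overlap (log2 fold change -0.16, SE 0.0541, adjusted p = 0.016). In HepG2, RARS2 had 60.1, 56.2 and 58.7 CPM with UBL5 siRNA, against 66.6, 61.1 and 62.97 CPM with Ctrl-siRNA, also with no overlap, and was not called (log2 fold change -0.13, SE 0.0869, adjusted p = 0.28). The Huh7 call of RARS2 was lost without UBL5 replicate 2 (adjusted p = 0.10), UBL5 replicate 3 (0.058) or control replicate 2 (0.10), and with DESeq2 (0.082).

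The other mitochondrial enzymes were called in Huh7 only, and by themselves these calls show no difference between the lines. NARS2 (asparaginyl), PARS2 (prolyl), AARS2 (alanyl), MARS2 (methionyl), LARS2 (leucyl) and IARS2 (isoleucyl) rose in Huh7, with log2 fold changes of 0.35, 0.35, 0.28, 0.24, 0.21 and 0.17. LARS2 and MARS2 were called although their Huh7 groups overlapped. In HepG2, PARS2 was at -0.32, NARS2 at -0.23 and IARS2 at -0.04, the other 3 lay closer to 0, and none of the 6 passed. TARS2 (threonyl) fell in Huh7 (log2 -0.14, adjusted p = 0.045) and was at -0.11 in HepG2. MARS2, a gene of 1 exon, and PARS2, a gene of 2 exons, have the fewest exons of the 37 members. In Huh7, MARS2 lost its call without control replicate 2 (adjusted p = 0.078) or control replicate 3 (0.06), PARS2 without UBL5 replicate 1 (0.056) or control replicate 2 (0.066), and TARS2 without UBL5 replicate 1 (0.096), UBL5 replicate 2 (0.10), UBL5 replicate 3 (0.15), control replicate 1 (0.082) or control replicate 2 (0.21). Scaling by library totals ended the Huh7 calls of IARS2, LARS2, MARS2 and PARS2 (adjusted p = 0.077, 0.095, 0.10 and 0.054), and RLE scaling that of TARS2 (0.072). A fit over all 12 libraries ended those of LARS2, MARS2, PARS2 and TARS2 (0.15, 0.088, 0.10 and 0.16).

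Leaving out each library in turn, 28 of the 33 members called in Huh7 kept the call in all 6 fits, and 9 of the 18 called in HepG2 did, AARS1, EPRS1, LARS1, MARS1, QARS1, HARS2, WARS2 and YARS2 among them. How many of all called genes kept the call in every fit was not counted, so these counts have no background. The spread between replicates, as the biological coefficient of variation of the fit, was 0.0663 in Huh7 and 0.189 in HepG2.

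For 17 mitochondrial members, the cytosolic enzyme of the same amino acid was also measured, with EPRS1 set beside both EARS2 and PARS2 and FARSA beside FARS2. In Huh7, 6 of the 17 pairs had the mitochondrial enzyme higher and the cytosolic one lower, 2 the reverse, 3 both higher, 2 both lower, and in 4 at least 1 enzyme was not called. The pair of VARS2, whose level is uncertain, was among the 6. Over all genes, 34.7% rose and 36.4% fell in Huh7, and 16.4% and 20.0% in HepG2. Pairs of other genes were not counted, so the pair counts have no background. The 3 pairs that rose together were those of histidine, tryptophan and tyrosine, and the pair of FARS2 and FARSA was among those that fell together. That holds for FARSA only, because FARSB, the other subunit of the cytosolic phenylalanyl enzyme, was called higher in Huh7 (log2 0.18). In HepG2, 14 pairs had an enzyme that was not called. Of the other 3, EPRS1 and EARS2 fell together, and CARS2 and VARS2 rose while CARS1 and VARS1 fell.

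**Figure D3:**
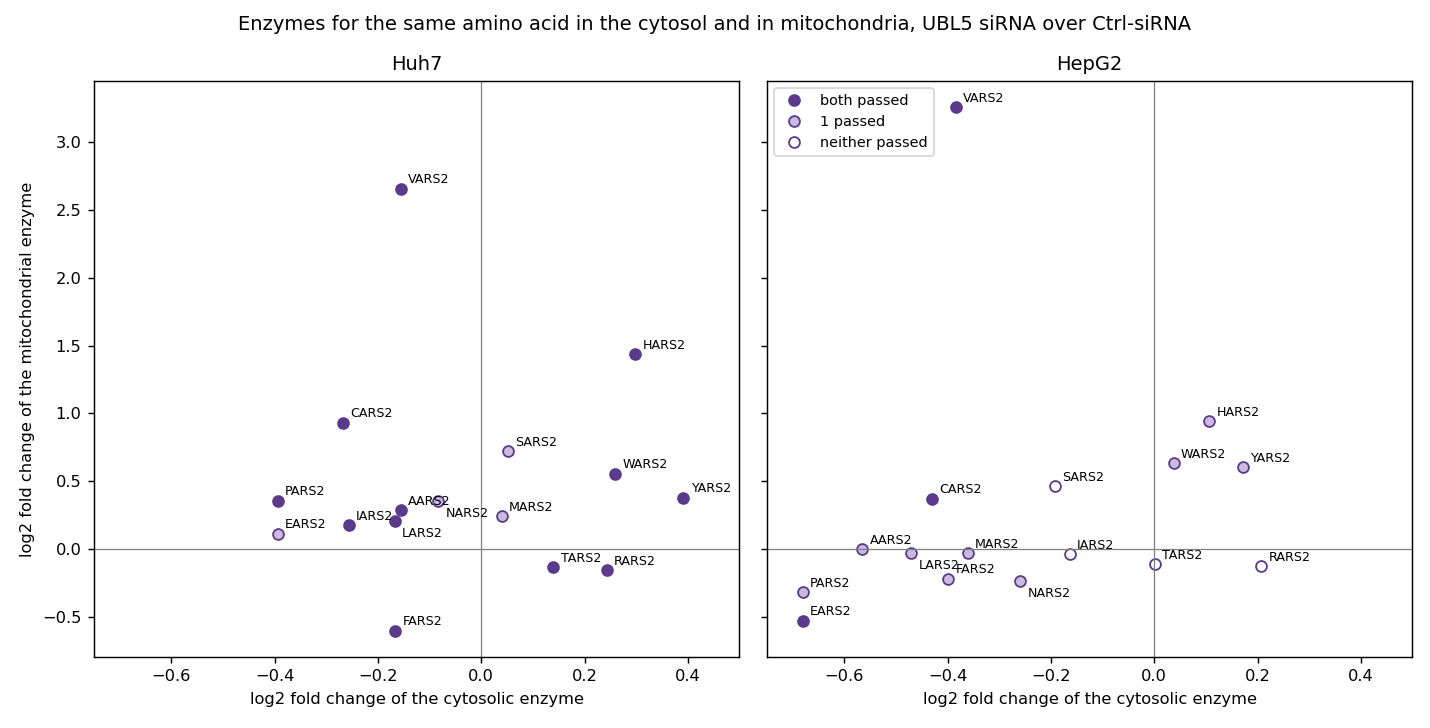
Log2 fold change of the mitochondrial enzyme (vertical axis) against that of the cytosolic enzyme for the same amino acid (horizontal axis), UBL5 siRNA over Ctrl-siRNA, in Huh7 (left) and HepG2 (right), with 16 of the 17 pairs per panel, named by the mitochondrial gene and points filled dark where both enzymes passed the test, light where 1 did and open where neither did. HARS2, WARS2 and YARS2 stand in the upper right of both panels, and VARS2 at the top, beside log2 fold changes of VARS1 of -0.16 in Huh7 and -0.38 in HepG2.

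An interaction term, fitted over all 12 libraries, tested whether a member responded differently in Huh7 than in HepG2. This fit, also used below for the control groups, estimated the spread over both lines together. Its biological coefficient of variation was 0.124, beside 0.0663 in Huh7 and 0.189 in HepG2 fitted apart. What the pooled spread does to these p-values was not tested. The estimate, Huh7 minus HepG2, was higher than 0 past the threshold for 8 members, 4 cytosolic and 4 mitochondrial, and lower for none, where 11.7% of 15668 genes were called higher and 9.91% lower. All 8 had the less negative or more positive response in Huh7. MARS1 differed by 0.37 (SE 0.0849, adjusted p = 0.007), and EARS2 by 0.61 (SE 0.144, adjusted p = 0.0081), both being lower in HepG2 and not called in Huh7. AARS1 differed by 0.38 (SE 0.0919, adjusted p = 0.0094), having fallen in both lines. CARS2 differed by 0.53 (SE 0.129, adjusted p = 0.0097) and HARS2 by 0.46 (SE 0.115, adjusted p = 0.011), having risen in both. For EPRS1, LARS1 and NARS2 the differences were 0.26 (SE 0.0775, adjusted p = 0.029), 0.27 (SE 0.078, adjusted p = 0.023) and 0.56 (SE 0.157, adjusted p = 0.021). With upper quartile scaling, 1415 of all genes were called higher and 1895 lower, against 1835 and 1552 with TMM, and EPRS1 and LARS1 were no longer called (adjusted p = 0.095 and 0.076), and leaving out single libraries ended their calls in 8 and 7 of 12 fits and that of NARS2 in 3, with adjusted p up to 0.077, 0.063 and 0.06. The other 29 members did not pass. With the replicate number as a block, SARS1, IARS2 and PARS2 passed too (adjusted p = 0.049, 0.049 and 0.047). Without HepG2 UBL5 replicate 1, FARSA and PARS2 passed (0.037 and 0.028), without HepG2 UBL5 replicate 3, KARS1 and SARS1 (0.02 and 0.037), and without HepG2 control replicate 3, KARS1 and PARS2 (0.021 and 0.038).

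The levels of the members with Ctrl-siRNA differed between the lines as well. Between the control groups, 6 of 20 cytosolic members were higher in Huh7 than in HepG2 and 8 were lower, and 3 of 17 mitochondrial members were higher and 10 lower, where 32.0% of all 15668 genes were higher and 31.7% lower. The line and the culture or library batch cannot be told apart here. CARS1 had the largest log2 ratio above 0, with 105 ± 4.98 CPM in Huh7 and 53.4 ± 5.04 CPM in HepG2 (SD, n = 3 each; log2 0.98, SE 0.0766, adjusted p = 6.5e-08, edgeR). EPRS1 (0.85), MARS1 (0.62), AARS1 (0.44), IARS1 (0.34) and LARS1 (0.23) were also higher in Huh7. Among the mitochondrial members higher there, RARS2 (0.54) and TARS2 (0.38) were 2 of the 3. CARS2 had the largest ratio in the other direction, with 18.004 ± 0.519 CPM in Huh7 and 43.7 ± 1.80 CPM in HepG2 (SD, n = 3 each; log2 -1.28, SE 0.093, adjusted p = 3.2e-08, edgeR). NARS2 (-1.24), FARS2 (-1.20), YARS2 (-1.04), MARS2 (-0.99), LARS2 (-0.69), PARS2 (-0.68), WARS2 (-0.44), HARS2 (-0.43) and EARS2 (-0.40) were the other mitochondrial members lower in Huh7. Cytosolic members lower in Huh7 included FARSB (-1.005), SARS1 (-0.73), KARS1 (-0.62), VARS1 (-0.60), FARSA (-0.38), HARS1 (-0.31) and RARS1 (-0.23). Scaling by library totals alone put the median log2 ratio of all genes at 0.14, a shift of 0.12 from 0.02, and under it RARS1 was not called (adjusted p = 0.087).

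Levels of different genes were compared per length of the MANE Select transcript, in CPM per kb, within the control libraries. The median was 80.8 CPM per kb over cytosolic and 9.80 over mitochondrial members in Huh7, and 87.8 and 15.6 in HepG2. AARS1 led the cytosolic members in Huh7 (202 CPM per kb) and KARS1 in HepG2 (217). FARSB was lowest in Huh7 (14.4) and CARS1 in HepG2 (19.5), and FARSB has the longest transcript of the members (6.76 kb). IARS2 led the mitochondrial members in both lines (81.8 in Huh7 and 86.4 CPM per kb in HepG2). SARS2 and VARS2, the members with the largest shares of exon bases in common with other genes, were lowest in both lines. Between neighbours in the order of levels, the means were within their SDs of each other in 6 of 19 cytosolic and 5 of 16 mitochondrial steps in Huh7, and in 10 of 19 and 10 of 16 in HepG2. The cytosolic enzyme was above its mitochondrial counterpart in all 17 pairs in Huh7 and in 15 in HepG2, with a median ratio of 8.86 and 6.38.

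**Figure D4:**
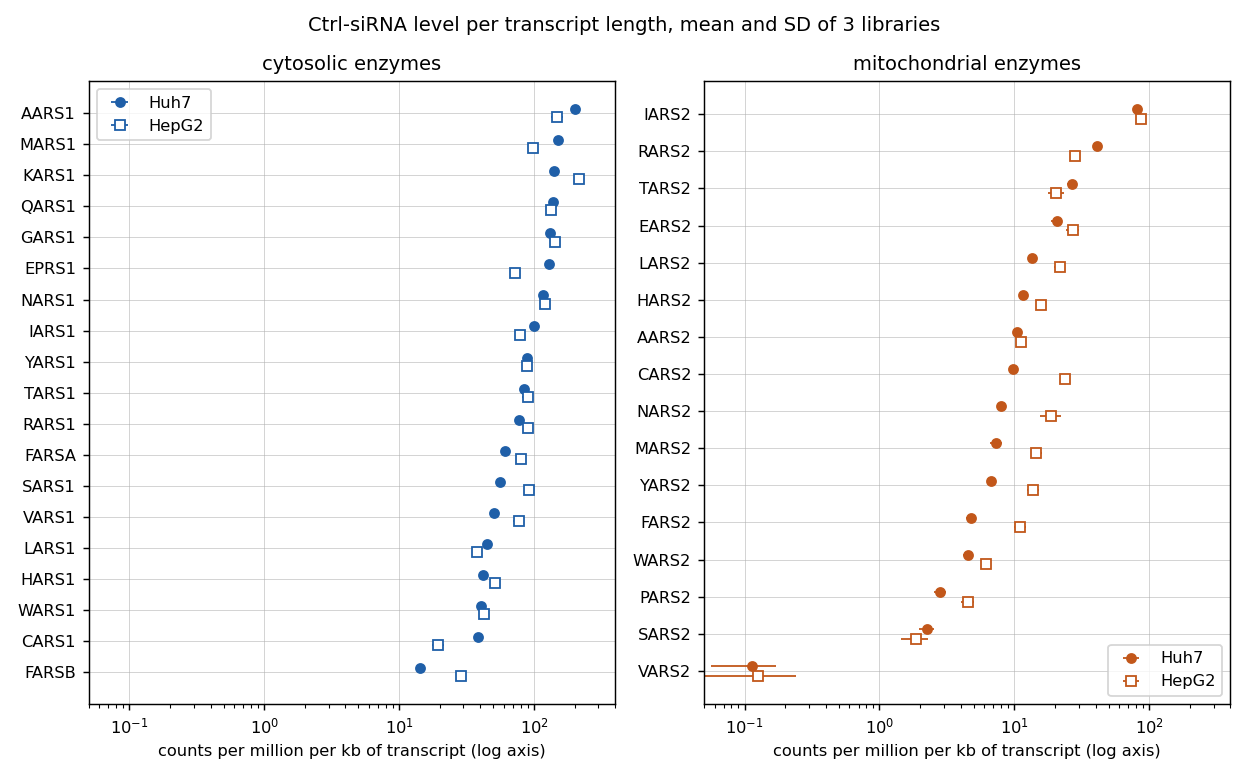
Level of each member with Ctrl-siRNA in CPM per kb of transcript on a log axis, as the mean and SD of 3 libraries, in Huh7 (filled circles) and HepG2 (open squares), cytosolic members on the left and mitochondrial members on the right, for 35 of the 37 members. IARS2, at 81.8 and 86.4 CPM per kb, lies above the other mitochondrial members in both lines, and VARS2 lies below all members shown.

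Genes that work beside the synthetases are given by lists written from general knowledge. Of the 3 scaffold genes of the multisynthetase complex, AIMP1 fell in both lines (log2 -1.16, adjusted p = 2.7e-10 in Huh7, and log2 -0.60, adjusted p = 0.0028 in HepG2). AIMP2 (log2 -0.10, adjusted p = 0.16 in Huh7, and log2 -0.45, adjusted p = 0.056 in HepG2) and EEF1E1 (log2 0.05, adjusted p = 0.69 in Huh7, and log2 0.16, adjusted p = 0.29 in HepG2) were not called. AIMP1 averaged 34.03 CPM with UBL5 siRNA and 77.2 CPM with Ctrl-siRNA in Huh7, and 87.8 and 133 CPM in HepG2. Of 12 tested genes of tRNA-dependent editing and amino acid conversion, 4 rose and 6 fell in Huh7, and 2 rose and 2 fell in HepG2, where the all-gene shares were 34.7% and 36.4% in Huh7 and 16.4% and 20.0% in HepG2. The shares of the list that rose (33.3% in Huh7 and 16.7% in HepG2) lie at that background. SEPHS2, which makes the selenium donor for selenocysteine, fell in both (log2 -0.58, adjusted p = 9.0e-08 in Huh7, and log2 -0.48, adjusted p = 0.0026 in HepG2). DTD1, which removes D-amino acids from tRNA, fell in Huh7 (log2 -0.75, adjusted p = 3.2e-07) and was at log2 -0.15, adjusted p = 0.42 in HepG2. AARSD1, which clears serine mischarged on alanine tRNA, rose in Huh7, at a mean of 4.06 CPM with UBL5 siRNA and 1.15 CPM with Ctrl-siRNA (log2 1.85, adjusted p = 4.5e-07) and was at log2 1.84, adjusted p = 0.099 in HepG2.

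Of 26 genes of tRNA processing and export tested in Huh7, 14 rose and 6 fell, and of 25 in HepG2, 5 rose and 5 fell. The HepG2 counts lie near the all-gene shares of 16.4% and 20.0%, and in Huh7 53.8% rose and 23.1% fell, beside 34.7% and 36.4%. TRMT10C, a subunit of the mitochondrial RNase P, rose in both lines (log2 0.96, adjusted p = 4.9e-09 in Huh7, and log2 0.95, adjusted p = 3.6e-04 in HepG2), as did SSB, the La protein that binds the ends of new tRNAs (log2 0.60, adjusted p = 1.7e-08 in Huh7, and log2 0.62, adjusted p = 8.3e-04 in HepG2). TSEN15, a subunit of the tRNA splicing endonuclease, fell in both (log2 -0.82, adjusted p = 2.9e-08 in Huh7, and log2 -0.73, adjusted p = 5.9e-04 in HepG2). Of 11 tested mitochondrial translation factors, 3 rose and 4 fell in Huh7, and 1 rose and 2 fell in HepG2, at or below the all-gene shares of 34.7% and 36.4% in Huh7 and 16.4% and 20.0% in HepG2. The initiation factors MTIF3 (log2 -1.01, adjusted p = 6.0e-07 in Huh7, and log2 -0.95, adjusted p = 0.0056 in HepG2) and MTIF2 (log2 -0.40, adjusted p = 1.4e-05 in Huh7, and log2 -0.71, adjusted p = 8.4e-04 in HepG2) fell in both. The release factor MTRF1 fell in Huh7 (log2 -0.68, adjusted p = 1.3e-04) and was at log2 0.05, adjusted p = 0.86 in HepG2.

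Of 32 genes of the ATF4 amino acid response tested in Huh7, 9 rose and 14 fell, with a median log2 fold change of -0.14, which is 28.1% and 43.8% beside 34.7% and 36.4% of all genes. Of 31 in HepG2, 5 rose and 15 fell, with a median of -0.35, which is 16.1% and 48.4% beside 16.4% and 20.0% of all genes. The amino acid transporter SLC38A2 rose in both lines (log2 0.80, adjusted p = 8.4e-09 in Huh7, and log2 1.09, adjusted p = 0.0054 in HepG2). SLC7A1, a transporter of arginine and lysine, fell in both (log2 -0.72, adjusted p = 1.0e-08 in Huh7, and log2 -0.45, adjusted p = 0.0023 in HepG2), as did PYCR1, an enzyme of proline synthesis (log2 -0.79, adjusted p = 2.9e-08 in Huh7, and log2 -0.67, adjusted p = 0.023 in HepG2).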

How the data were processed

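Strand-specific mRNA libraries were sequenced from 12 samples, 3 per siRNA and line. Per the submitters' processing notes, the authors used bcl2fastq, FastQC 0.11.9, STAR 2.7.6a on GRCh38, featureCounts and DESeq2 1.30.0. The annotation, the strand setting and the treatment of reads in shared bases are not given in the sources used here. The authors deposited raw counts per gene for each library. The deposited columns of the authors' own comparison (mean normalized count, log2 fold change with its error and statistic, p-value and adjusted p-value) were not used. Each of the 12 count columns was matched to its sample by name, and 0 were left unmatched.

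Counts were tested with edgeR 4.0.16 (R 4.3.3; filterByExpr with min.count 10 and min.total.count 15, TMM, robust quasi-likelihood F test) within each line, 3 libraries against 3, and over all 12 libraries for the difference between the lines and between the controls, on the genes listed for both. Calls were made at a Benjamini-Hochberg adjusted p under 0.05 over all genes tested. The SE is the log2 fold change divided by the root of the F statistic. Values printed as CPM were scaled over all 12 libraries. Alternatives were other scalings, DESeq2 1.42.0, no filter, a stricter filter (min.count 50), leaving out each library, the replicate number as a block and a fit over all 12 libraries. The steps were tested on simulated counts. Within each siRNA group of a line, no library duplicated another. Libraries of different groups were not checked for this. Python 3.11.15, numpy 2.4.6, pandas 2.3.3 and matplotlib 3.10.9 were used for summaries.

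The replicate numbers were checked for pairing by the correlation of deviations from the group means over genes with a mean of at least 10 CPM. In HepG2 the same-numbered libraries correlated at 0.41, 0.32 and 0.34, so a number was taken to pair them there, from the data and not from a label. In Huh7 the values were 0.44, 0.06 and 0.57, and because of the 0.06 the numbers were not taken as pairs. Libraries of unlike number correlated at -0.34 to -0.05 in HepG2 and at -0.51 to 0.13 in Huh7. The main fits used no pairing in either line, HepG2 included. The replicate block was run only as an alternative, in both lines.

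Positions and exons are from GENCODE 44 (GRCh38), which held 17603 of 17640 HepG2 and 18398 of 18434 Huh7 identifiers. Values in every library are given for UBL5, for the 3 highest and 3 lowest called members per compartment and line, and for the 3 members with the smallest interaction p. Of each list of other genes, the 3 genes with the lowest adjusted p of the lines are named. VARS2 and SARS2 are also given as counts, because of their shared exons. Some members and 1 sequence enter the counts but are not reported singly here. Members and lists were chosen with earlier results of these data known. Depth limits the precision of the lowest members, VARS2 and SARS2 (at most 158 counts in a library), and FARS2 and PARS2 in Huh7 among others.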

Additional observations from a re-analysis of the deposited data

Results flagged for a closer look

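The response to UBL5 siRNA of 8 members differed between the lines by the interaction test (edgeR, adjusted p under 0.05). Of the 37 members, 21.6% were called higher and 0 lower. Over all 15668 genes, 3387 were called, 11.7% higher and 9.91% lower. The share of members called in either direction thus lies near that of all genes, and only the direction differs. The differences, Huh7 minus HepG2 on the log2 scale, were 0.38 for AARS1, 0.53 for CARS2, 0.61 for EARS2, 0.26 for EPRS1, 0.46 for HARS2, 0.27 for LARS1, 0.37 for MARS1 and 0.56 for NARS2. For AARS1, CARS2, EARS2, HARS2 and MARS1 the difference was called in all 12 fits that left out a library, with adjusted p of at most 0.037. The HepG2 libraries with UBL5 siRNA had more reads on mitochondrial transcripts than their controls (2.75% to 3.61% against 1.91% to 2.36%), and the part of this in these differences was not tested.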

How the results depend on the processing

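No member's call turned round under any alternative that was run. In HepG2, the count of cytosolic members called higher was 1 and became 2 with RLE scaling, upper quartile scaling, DESeq2, no filter, the stricter filter and the replicate block, and 3 in the fit over all 12 libraries. In Huh7, the count of mitochondrial members called lower was 4 and became 2 with DESeq2 (TARS2 and RARS2 lost). In the test between the lines, the count of cytosolic members called higher was 4 and became 2 with upper quartile scaling, where 1415 of all genes were called higher and 1895 lower, against 1835 and 1552. Leaving out 1 library gave 3823 to 7271 calls over all genes in HepG2 and 1991 to 3900 lower ones, with 0 to 2 cytosolic members higher, 6 to 10 lower, 3 to 5 mitochondrial members higher and 1 to 2 lower. It gave 2 to 4 mitochondrial members lower in Huh7, and 2 to 6 cytosolic members higher in the test between the lines. The lowest counts over all genes in HepG2 came without UBL5 replicate 2. With the replicate block, 10 cytosolic members fell and 2 rose in HepG2, RARS1 being the member gained, and no other member's call changed there. In Huh7 the block gave 13 mitochondrial members higher in place of 12, with EARS2 gained, and between the lines 5 cytosolic and 6 mitochondrial members higher. The 27 members called between the control groups kept the call in all 6 fits that left out a control library, and the same was not counted over all genes.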
